A study of Mus musculus with 38 samples.

Results

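This section compares H3K4me1, a histone mark of primed and active enhancers, in cultured mouse epidermal stem cells (EpdSCs) that expressed 1 of 2 truncated forms of the transcription factor SOX9. ΔHMG-SOX9 lacked the HMG domain, which binds DNA, and ΔTA-SOX9 lacked the transactivation domain, which contacts co-factors. The ΔHMG-SOX9 list held 116326 domains and the ΔTA-SOX9 list 123338, of 466295 domains in the 4 culture lists used. A domain was taken as exclusive when no domain of the other list overlapped it by at least 1 bp, which left 19407 domains only in the ΔHMG-SOX9 list and 26813 only in the ΔTA-SOX9 list.

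The series holds 38 samples, of which 2 are the culture libraries, 1 from a high and 1 from a low micrococcal nuclease digest. They were labelled as keratinocytes of male mice with the genotype K14rtTA; TRE-myc-Sox9varients. The study's methods describe primary EpdSCs carrying Krt14-rtTA, a doxycycline (DOX) sensor driven by the keratin 14 promoter of basal keratinocytes, which were transduced with a lentivirus that puts MYC-tagged WT, ΔTA or ΔHMG SOX9 under a DOX-responsive promoter, were selected with puromycin and were then given DOX. The labels' general text on DOX-fed animals and sorted cells describes the skin samples, and the culture samples carry no sorting scheme. By the study's methods, the skin samples used here come from male Krt14-rtTA;TRE-Sox9 mice, in which DOX induces MYC-tagged SOX9. MINT-ChIP, in which chromatin of each condition gets its own barcode before the conditions are pooled for the antibody, gave both libraries, and the barcode lists name 6 conditions in each: the 3 forms of SOX9 with and without DOX. All conditions therefore share both libraries, and reads of both digests were merged into 1 list per condition. Every list compared here comes from transduced, puromycin-selected cells. The only uninduced list used is that of the WT-SOX9 cells, since the uninduced lists of the ΔHMG and ΔTA lines were not analysed here. A domain in a truncation list that is missing from it can therefore be a difference between transduced lines or an effect of DOX as well as of the SOX9 form, and these cannot be told apart. Each condition has 1 pooled list and no separate replicate, so no difference between lists could be tested and none carries a p-value. The range beside a share is its exact 95% Clopper-Pearson interval and reflects only the number of domains counted.

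SOX9 is the SOX family factor that directs skin progenitors to the hair follicle stem cell fate, and its HMG box recognises short letters close to ACAATG or ACAAAG. Its C-terminal transactivation domain recruits chromatin enzymes, among them complexes that write H3K4me1. AP1 factors, dimers of FOS and JUN proteins that bind TGANTCA, sit at a large set of keratinocyte enhancers. H3K4me1 usually covers the shoulders of enhancers and promoters, and domains far from start sites mark mostly enhancers.

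Sequences are shown first for domains with a fold over background among the highest of those exclusive to each list. Then follow domains at some of the listed genes whose coverage differed most. Each is 300 bp centred on a domain in GRCm38 (mm10), which runs past both ends of domains narrower than that (near Tcp10c, in Clcn1 and near Il1b), read from the genome 5′ to 3′, and capitals mark every match on either strand to the SOX letters ACAATG or ACAAAG, the AP1 letters TGANTCA (N is any base), the GATA letters AGATAA and the RUNX letters TGTGGTT.
ΔHMG-SOX9-only, near Tcp10c, chr17:13308310-13308609, plus strand: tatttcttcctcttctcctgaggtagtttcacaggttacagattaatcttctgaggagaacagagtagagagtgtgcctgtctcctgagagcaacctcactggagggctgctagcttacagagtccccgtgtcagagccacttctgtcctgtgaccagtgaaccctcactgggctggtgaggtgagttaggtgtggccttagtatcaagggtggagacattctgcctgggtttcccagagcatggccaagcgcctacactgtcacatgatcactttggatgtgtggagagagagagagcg
ΔHMG-SOX9-only, near Ankrd1, chr19:36110984-36111283, plus strand: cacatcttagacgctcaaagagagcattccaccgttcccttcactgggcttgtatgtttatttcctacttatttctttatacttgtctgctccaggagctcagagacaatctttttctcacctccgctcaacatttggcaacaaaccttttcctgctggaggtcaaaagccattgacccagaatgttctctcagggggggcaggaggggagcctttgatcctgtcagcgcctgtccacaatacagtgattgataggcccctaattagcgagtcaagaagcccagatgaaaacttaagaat
ΔTA-SOX9-only, in Clcn1, chr6:42289642-42289941, plus strand: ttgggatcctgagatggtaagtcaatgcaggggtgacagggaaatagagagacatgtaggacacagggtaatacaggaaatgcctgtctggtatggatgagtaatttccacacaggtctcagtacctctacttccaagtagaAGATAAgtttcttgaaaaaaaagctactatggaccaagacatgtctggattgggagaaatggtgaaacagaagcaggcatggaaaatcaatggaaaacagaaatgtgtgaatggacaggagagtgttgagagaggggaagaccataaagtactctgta
ΔHMG-SOX9-only, near Il1b, chr2:129363579-129363878, plus strand: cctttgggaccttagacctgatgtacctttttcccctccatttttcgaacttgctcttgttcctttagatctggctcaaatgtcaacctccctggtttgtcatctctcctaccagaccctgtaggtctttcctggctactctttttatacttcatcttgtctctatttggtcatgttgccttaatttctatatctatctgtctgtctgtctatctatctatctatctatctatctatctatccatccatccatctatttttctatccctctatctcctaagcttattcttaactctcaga
ΔTA-SOX9-only, near Jun, chr4:95040939-95041238, plus strand: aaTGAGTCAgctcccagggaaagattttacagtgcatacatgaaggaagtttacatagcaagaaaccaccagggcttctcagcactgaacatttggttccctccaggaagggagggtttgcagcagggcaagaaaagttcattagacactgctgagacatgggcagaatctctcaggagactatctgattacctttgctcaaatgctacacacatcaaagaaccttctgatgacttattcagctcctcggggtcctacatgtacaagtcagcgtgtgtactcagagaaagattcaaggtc
ΔTA-SOX9-only, near S100a9, chr3:90702233-90702532, plus strand: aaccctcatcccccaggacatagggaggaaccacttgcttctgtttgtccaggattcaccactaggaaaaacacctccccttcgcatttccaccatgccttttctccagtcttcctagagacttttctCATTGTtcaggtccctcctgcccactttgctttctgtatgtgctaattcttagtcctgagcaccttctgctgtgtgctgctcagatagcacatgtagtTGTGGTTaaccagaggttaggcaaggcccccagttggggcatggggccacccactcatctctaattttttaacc
None of the first 3 windows held SOX, AP1 or RUNX letters, and 1 of them, in an intron of the chloride channel gene Clcn1, held the GATA letters. The window near Il1b held none of these letters. The window near Jun held the AP1 letters once. The window upstream of S100a9 held SOX letters once and RUNX letters once. That of the strongest ΔTA-SOX9-only domain at S100a8, which is not printed, held none.

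Over whole lists the AP1 letters separated the exclusive domains of the ΔTA-SOX9 and ΔHMG-SOX9 cells. They were found in 21.3% of the central windows of ΔTA-SOX9-only domains (95% interval 20.8 to 21.8) and in 13.2% of those of ΔHMG-SOX9-only domains (12.7 to 13.7). Shared domains lay between, at 19.7% in the ΔHMG-SOX9 list and 19.4% in the ΔTA-SOX9 list. Among all domains of a list the share was 18.6% with ΔHMG-SOX9, 19.8% with ΔTA-SOX9, 17.6% in WT cells without DOX and 15.6% in WT cells with DOX. Among exclusive domains found in no other culture list both shares were higher, 23.0% (22.3 to 23.6) with ΔTA-SOX9 and 14.8% (14.02 to 15.7) with ΔHMG-SOX9.

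Width and base composition differ between exclusive and shared domains, so the AP1 share was also read within bins of each. For domains of 300 to 500 bp it was 22.1% in the ΔTA-SOX9-only set and 14.2% in the ΔHMG-SOX9-only set, and for 1000 to 2000 bp 17.7% and 9.47%. In windows with 40 to 50% GC it was 23.2% and 14.9%, and with 50 to 60% GC 17.4% and 10.2%. The ΔTA-SOX9-only share was the higher one in each of these bins. At 60% GC or more the ΔTA-SOX9-only and ΔHMG-SOX9-only shares were 4.36% and 3.82%, with overlapping intervals. Against shared ΔTA-SOX9 domains the order depended on width and GC. The shared ones held the letters more often at 1000 to 2000 bp (19.99%) and, by little, at 50 to 60% GC (17.8%) and at 60% GC or more (4.88%).

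Over whole lists SOX letters did not separate the truncations in this way. They were present in 36.6% of ΔHMG-SOX9-only windows (35.9 to 37.3) and 35.96% of ΔTA-SOX9-only windows (35.4 to 36.5), against 34.6% and 34.7% of shared windows. Of the domains that the uninduced list lacked, 36.02% held them with ΔHMG-SOX9 and 35.9% with ΔTA-SOX9, and the same count with WT SOX9 gave 48.3% (47.8 to 48.8). Within GC bins a small gap in the SOX letters appeared. In windows with 40 to 50% GC, 40.1% of ΔHMG-SOX9-only (39.2 to 41.1) and 37.8% of ΔTA-SOX9-only windows (37.04 to 38.6) held them. The shares were 45.9% and 45.3% below 40% GC, and 28.8% and 26.97% at 50 to 60% GC. At 60% GC or more the order was reversed, 16.1% and 19.3%. Intervals overlapped in each bin except that of 40 to 50% GC. The GATA letters, at 15.6% and 15.9% of exclusive windows, and the RUNX letters, at 7.47% and 7.19%, had overlapping intervals. A match is a description of letters and not of a bound factor.

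**Figure D1:**
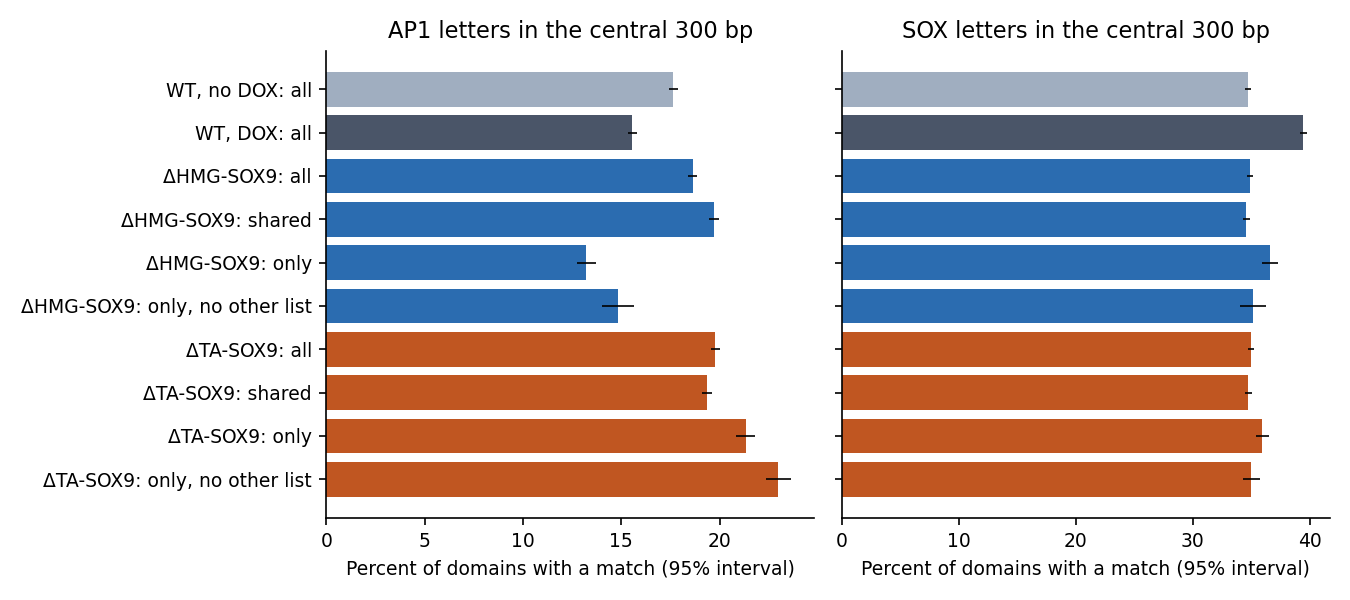
Share of domains (percent, with 95% Clopper-Pearson intervals) whose central 300 bp hold the AP1 letters (left) or the SOX letters (right), for all, shared and exclusive domains of the culture lists; "no other list" means absent from both WT-SOX9 cell lists. The AP1 bars reach 21.3% for ΔTA-SOX9-only and 13.2% for ΔHMG-SOX9-only domains, while the SOX bars of the truncations stay between 34.6% and 36.6% and that of WT SOX9 with DOX is at 39.4%.

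The exclusive sets were a minority of each list. Exclusive domains made up 16.7% of the ΔHMG-SOX9 list (16.5 to 16.9) and 21.7% of the ΔTA-SOX9 list (21.5 to 22.0), so that ΔTA-SOX9-only domains outnumbered ΔHMG-SOX9-only domains 1.38 times. They covered 10.4 Mb and 16.2 Mb, of 120.1 Mb and 133 Mb in the full lists. The Jaccard index, the bases covered by both lists over those covered by either, was 0.556. For scale it was 0.587 between ΔHMG-SOX9 and uninduced WT cells, 0.526 between ΔTA-SOX9 and uninduced WT cells, 0.450 and 0.406 between each truncation and WT SOX9 with DOX, and 0.467 between the WT lists with and without DOX. Both truncations thus resembled each other and the uninduced list more than either resembled WT SOX9 with DOX, although these indices share lists and libraries.

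The ratio moved with list length, and depth differed between the lists. The background pileup that the folds imply, an estimate of read depth, was 1.52 in the ΔHMG-SOX9 list and 1.66 in the ΔTA-SOX9 list, 1.09 times higher. It was 1.60 in the uninduced WT list and highest, 1.93, in the WT list with DOX. The part of depth in the Jaccard indices and in overlaps with the WT lists was not tested. When the ΔTA-SOX9 list was shortened to the length of the ΔHMG-SOX9 list by score, 21980 and 22493 domains were exclusive, a ratio of 1.02. The part of depth in the larger ΔTA-SOX9-only set was not tested further.

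Exclusive domains were narrow and weak. Their median width was 393 bp in the ΔHMG-SOX9 list and 454 bp in the ΔTA-SOX9 list, against 946 bp and 1028 bp for shared domains, and their median fold over background was 3.20 and 3.17, against 3.74 and 3.67. In the narrowest class, under 300 bp, 48.9% of ΔHMG-SOX9 domains and 56.6% of ΔTA-SOX9 domains were exclusive, and in the widest, 2000 bp or more, 0.795% and 2.05%. At a fold of 8 or more 11 of 665 ΔHMG-SOX9 domains (1.65%) and 19 of 559 ΔTA-SOX9 domains (3.40%) were exclusive. The ΔTA-SOX9 share was the larger in every bin of width and of fold. Intervals of both lists overlapped only at the highest fold.

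**Figure D2:**
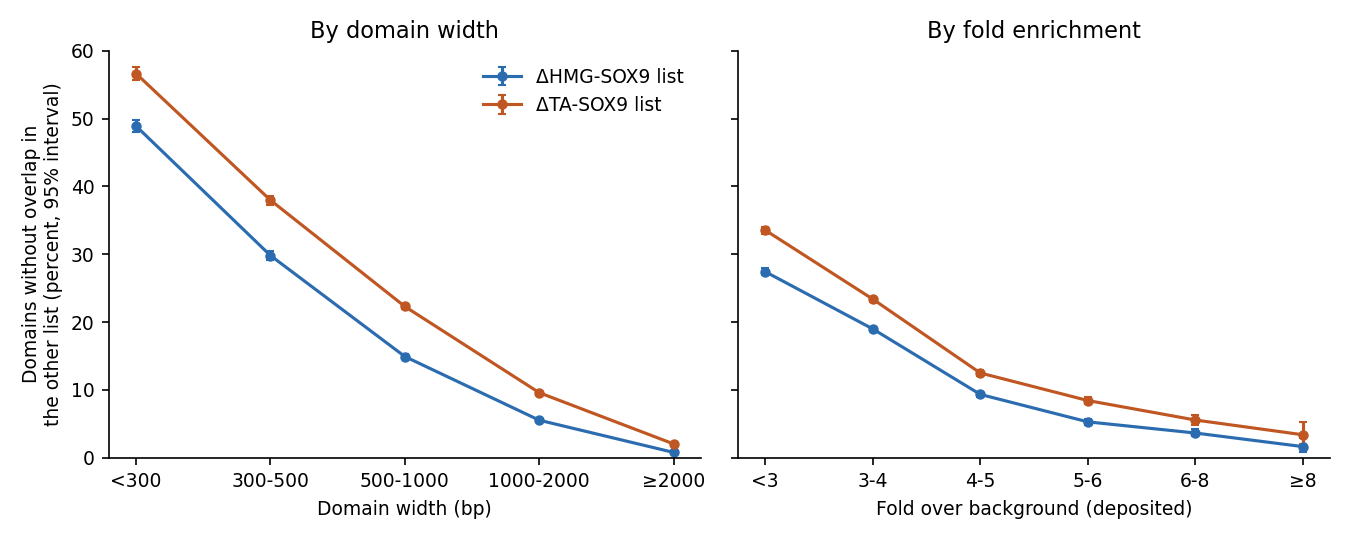
Share of domains without overlap in the other list (percent, with 95% Clopper-Pearson intervals) by domain width in bp (left) and by deposited fold over background (right), for each truncation list. The share falls from 48.9% and 56.6% below 300 bp to 0.795% and 2.05% at 2000 bp or more, and the ΔTA-SOX9 line lies above the ΔHMG-SOX9 line throughout.

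Few exclusive domains lay close to a called domain of the other list. Only 6.73% of ΔHMG-SOX9-only domains and 5.31% of ΔTA-SOX9-only domains lay within 1000 bp of a domain of the other list. The other list had no called domain within 10000 bp of 20.4% of ΔHMG-SOX9-only domains (19.8 to 20.9) and 29.9% of ΔTA-SOX9-only domains (29.3 to 30.4). The lists hold called domains only, so weaker signal of the other condition at the same place cannot be seen.

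The exclusive sets differed most in what the WT-SOX9 cells showed at the same places. Of ΔHMG-SOX9-only domains 47.7% (47.0 to 48.4) were called in uninduced WT cells. Of ΔTA-SOX9-only domains 26.7% (26.1 to 27.2) were called without DOX. Those in neither WT list made up 61.7% of the ΔTA-SOX9-only set, 16536 domains, and 37.6% of the ΔHMG-SOX9-only set, 7292 domains. Those in both WT lists made up 27.6% of the ΔHMG-SOX9-only set and 11.9% of the ΔTA-SOX9-only set. Among shared domains 87.3% and 87.4% were called without DOX.

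The contrast was wider among strong and wide domains. At a fold of at least 5, 338 of 736 ΔHMG-SOX9-only domains (45.9%) were in both WT lists and 143 (19.4%) in neither. Of 1067 ΔTA-SOX9-only domains of that strength 122 (11.4%) were in both and 610 (57.2%) in neither. At a width of at least 1000 bp, 47.7% of 2052 ΔHMG-SOX9-only domains were in both WT lists against 16.3% of 4038 ΔTA-SOX9-only domains.

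**Figure D3:**
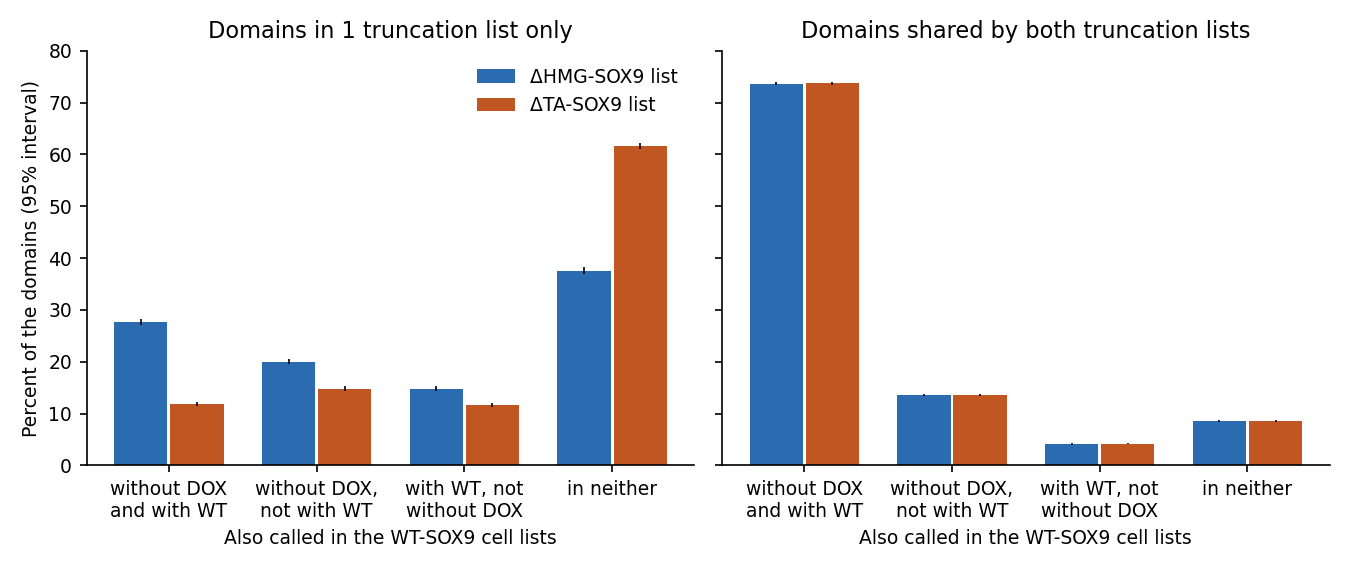
Percent of exclusive domains (left) and of shared domains (right) of each truncation list that were also called in the WT-SOX9 cell lists without DOX and with DOX, with 95% Clopper-Pearson intervals. On the left, 61.7% of ΔTA-SOX9-only and 37.6% of ΔHMG-SOX9-only domains were in neither list, while on the right the bars of both lists are level at 73.7% in both WT lists.

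Epidermis in vivo gave a related order. H3K4me1 domains of sorted EpdSCs before induction (D0), a list named for the caller epic2, overlapped 46.6% of ΔHMG-SOX9-only domains (45.9 to 47.3), 33.6% of ΔTA-SOX9-only domains (33.0 to 34.2) and 65.4% and 65.5% of the shared domains. After 2 weeks of DOX-induced SOX9 in the animal the shares were 38.4% and 29.7%, and 59.1% and 59.2% of shared domains. The later list thus overlapped shared domains less too. Peaks of H3K27ac, a mark of active elements, at D0 overlapped 5.24% of ΔHMG-SOX9-only domains, 4.05% of ΔTA-SOX9-only domains and 15.4% and 15.5% of shared ones. Within the exclusive domains that no other culture list had, the D0 H3K4me1 shares were 32.8% for ΔHMG-SOX9 and 23.9% for ΔTA-SOX9. Of the WT lists, those in the uninduced one only had 48.2% and 43.2%, those in the DOX one only 45.7% and 40.8%. Exclusive domains in both WT lists were level, 64.5% and 65.0%. After 2 weeks the order was reversed for these (57.2% and 60.6%) and for the DOX one only (45.2% and 46.4%). It was kept for the uninduced one only (34.6% and 34.1%) and for neither (23.8% and 19.6%).

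Both exclusive sets lay away from promoters, and the ΔTA-SOX9-only set more so. Domains over 2500 bp from any annotated start site made up 82.0% of the ΔHMG-SOX9-only set (81.4 to 82.5) and 84.7% of the ΔTA-SOX9-only set (84.2 to 85.1), against 74.9% and 74.8% of shared domains. A start site was covered by 2.65% and 2.17% of exclusive domains and by 7.15% and 7.20% of shared ones. Intergenic sequence held 37.0% of ΔHMG-SOX9-only and 42.3% of ΔTA-SOX9-only domains, and introns 48.8% and 44.9%. More than 50 kb from a start site were 12.2% of ΔHMG-SOX9-only domains (11.8 to 12.7), 17.6% of ΔTA-SOX9-only domains (17.2 to 18.1) and 11.3% of shared domains in both lists. Median GC content was 47.8% and 46.6%.

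ΔTA-SOX9-only domains outnumbered ΔHMG-SOX9-only domains at every gene density, and the ratio was higher where genes were few. In windows of 5 Mb with fewer than 10 protein-coding genes there were 767 ΔHMG-SOX9-only and 1296 ΔTA-SOX9-only domains, a ratio of 1.69 (1.54 to 1.85). The ratio was 1.64, 1.49 and 1.27 in the next bins and 1.15 (1.10 to 1.197) in windows with 80 or more genes. With lists of equal length it was 1.24 under 20 genes and 0.831 at 80 or more, so the direction in gene-rich windows depended on list length, and the ratio was still the higher one in gene-poor windows. Of 501 windows with at least 20 exclusive domains, 415 had more ΔTA-SOX9-only and 77 more ΔHMG-SOX9-only domains. Whole lists differed less, with 15.7% of ΔHMG-SOX9, 16.5% of ΔTA-SOX9, 16.1% of uninduced and 17.6% of WT DOX domains in windows of under 20 genes. By chromosome the ratio ran from 1.16 on chromosome 17 to 1.60 on chromosome 10, leaving aside chromosome Y with 3 and 1 exclusive domains.

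**Figure D4:**
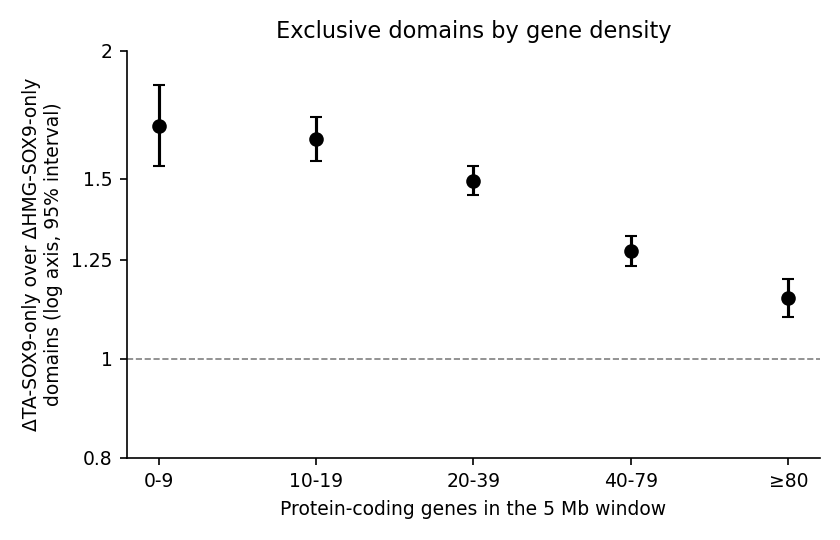
Number of ΔTA-SOX9-only domains over number of ΔHMG-SOX9-only domains (log axis, with 95% intervals from the exact binomial) in 5 Mb windows grouped by their number of protein-coding genes; the dashed line marks equal numbers. The ratio falls from 1.69 in windows with fewer than 10 genes to 1.15 in windows with 80 or more.

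The window with the largest gap lay on chromosome 12 between 25 and 30 Mb, with 30 ΔHMG-SOX9-only and 116 ΔTA-SOX9-only domains. It holds Sox11, a SOX family gene of progenitor cells. The largest gap the other way was on chromosome 17 between 25 and 30 Mb, a window of 137 genes, with 102 ΔHMG-SOX9-only and 84 ΔTA-SOX9-only domains.

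Counted by nearest protein-coding start site, the ΔTA-SOX9-only domains were most numerous around 5 genes, 4 of them transcription factors or zinc finger genes, and lay mostly far from the start. Sox9 itself had the most, with 37 of 124 ΔTA-SOX9 domains exclusive against 8 of 94 ΔHMG-SOX9 domains. The 37 domains lay a median of 177 kb from its start, 27 of them over 100 kb away, and 21 of the 37 were in neither WT list. Sox11 followed with 36 of 78 domains against 6 of 47, and 22 of the 36 were in neither WT list. Zfp608, which encodes a zinc finger protein, had 36 of 115 against 9 of 87. Myc, the growth and cell cycle regulator, had 28 of 141 against 14 of 124, and 27 of the 28 lay over 100 kb from its start. At Myc both shares were below those of the whole lists, 21.7% with ΔTA-SOX9 and 16.7% with ΔHMG-SOX9. Fhit, a gene of 1612 kb, had 27 of 45 against 5 of 23.

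The genes with the most ΔHMG-SOX9-only domains did not favour that list as much. Efna5, an ephrin ligand of cell guidance, had 26 of 83 ΔHMG-SOX9 domains exclusive and 21 of 76 ΔTA-SOX9 domains. Nr2f2, an orphan nuclear receptor, had 18 of 82 and 20 of 82, and Foxp1, a forkhead repressor, 17 of 103 and 17 of 106. Tbl1xr1, a subunit of the NCoR co-repressor complex, had 17 of 77 and 27 of 86, and Frmd4a, a scaffold of cell polarity, 16 of 64 and 11 of 59. Over the whole lists 16.7% and 21.7% were exclusive, and at Foxp1 neither share was above these. Genes were ranked by their number of exclusive domains, which is a description of the lists.

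The individual domains with the highest fold were short, from 234 to 644 bp in the ΔHMG-SOX9 list and from 236 to 988 bp in the ΔTA-SOX9 list. The strongest ΔHMG-SOX9-only domain, at chr17:13308317-13308603, was intergenic, had a fold of 13.0 and lay 45968 bp from the start of Tcp10c and 165614 bp from any ΔTA-SOX9 domain. The next, at chr19:36110966-36111302, had a fold of 9.45 and lay 8607 bp from the start of Ankrd1, a stress-responsive target of YAP signalling. The third, with a fold of 8.62, overlapped an exon of the nuclear receptor gene Nr2c2. Of the 10 strongest, 8 were also called in both WT lists and 2 in neither.

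Among the strongest ΔTA-SOX9-only domains, that at chr6:42289661-42289922 in an intron of Clcn1 had a fold of 10.4. Others lay in introns of Pappa, a secreted protease that frees insulin-like growth factors (8.55), of the potassium channel gene Kcnn2 (8.49), of the dynein gene Dnah14 (8.43) and of the synaptic adhesion gene Nlgn1 (8.43). Of the 10 strongest, 7 were called in the uninduced WT list and not with WT SOX9, 3 were in neither and 0 were in both. Such short, strong intervals were a small set, and only 11 ΔHMG-SOX9-only and 19 ΔTA-SOX9-only domains reached a fold of 8.

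The widest exclusive domains were weaker. In the ΔHMG-SOX9 list they lay in an intron of the microtubule gene Map4 (3447 bp, fold 3.09), in Slc25a43 (2900 bp), in Tmem164 (2865 bp), in the phosphatase gene Ptprf (2861 bp) and over the start of Adgrb1 (2774 bp), and all but the last were called in both WT lists. In the ΔTA-SOX9 list the widest covered the start of Lgals8, which encodes a galectin (4055 bp, fold 3.15). The second lay 62060 bp from the start of Tnfaip3, an inhibitor of NF-κB signalling (3693 bp, fold 3.12), and was called with WT SOX9 and not without DOX. The others lay in Antxr1 (3679 bp), in Mamdc2 (3536 bp) and 137789 bp from the start of Ss18 (3526 bp).

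Shared domains had nearly equal folds. Exactly 1 domain of each list met at 91242 places, and there the log2 ratio of the ΔHMG-SOX9 to the ΔTA-SOX9 fold had a median of 0.03, with quartiles of -0.15 and 0.20. Relative to that median, 2250 pairs (2.47%) were at least 1.5 times higher with ΔHMG-SOX9 and 2216 (2.43%) at least 1.5 times higher with ΔTA-SOX9. The ΔTA-SOX9 domain was the wider one in 56.2% of pairs.

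The pairs that differed carried the same contrast as the exclusive domains. Of those higher with ΔHMG-SOX9, 88.8% were called without DOX and 76.9% with WT SOX9. Of those higher with ΔTA-SOX9, 71.4% and 53.2% were, and of the remaining pairs 87.4% and 77.98%. D0 skin domains overlapped 54.4% of the pairs higher with ΔHMG-SOX9, 44.3% of those higher with ΔTA-SOX9 and 65.2% of the remaining pairs.

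Among pairs of at least 1000 bp, the largest ratio towards ΔHMG-SOX9 was in 9530052E02Rik, 40731 bp from the start of the insulin receptor substrate gene Irs2, with folds of 6.37 and 3.16. It was followed by introns of Dntt, which encodes the terminal transferase of lymphocytes (6.41 and 3.26), Igdcc3 (7.64 and 3.92) and Frmd5 (5.30 and 2.73), and by a domain 36685 bp from Vangl1, a planar cell polarity gene (6.69 and 3.49). Towards ΔTA-SOX9 the largest ratio was in an intron of the DNA methyltransferase gene Dnmt3a, where the ΔHMG-SOX9 fold was 4.10 and the ΔTA-SOX9 fold 8.41. Introns of Maml3, a Notch co-activator (3.10 and 6.19), Btbd8 (3.04 and 5.76) and Eefsec (3.41 and 6.42) and a domain 87941 bp from Tacr1 (3.47 and 6.72) followed.

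At Sox9 the borders of the domains over the gene were set beside its stop codon. Over the gene, on chromosome 11 from 112782224 to 112787760, the ΔHMG-SOX9 list had a domain from 112783361 to 112785509 with a fold of 3.61, and the ΔTA-SOX9 list one from 112783828 to 112785767 with a fold of 3.40. Both ended in exon 3, the first 1 bp before the last base of the stop codon and the second 257 bp past it. The uninduced WT domain ended 1 bp past that base, and the WT domain with DOX 23 bp before it. Whether reads of the introduced Sox9 sequence add to these domains was not tested. The deleted stretches cannot be read from such borders, so the names of the lists were not checked by the locus.

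As a check of cell type, the keratinocyte genes Krt5, Krt14 and Trp63 had a domain within 1000 bp of a start site in both lists. Itga6, which encodes a hemidesmosome integrin, had none there, with 21.4% and 22.5% of its region covered. Of 12 markers of other skin cells, the regions of Lum, a fibroblast gene, and Lyz2, a myeloid gene, were at 0 in both lists. Start sites of Col1a1 and Pdgfra, both fibroblast genes, and of Mitf and Dct, both melanocyte genes, had a domain in both lists too, so a marked start did not set keratinocyte genes apart. The other 10 were covered by between 0.842% and 12.7% with ΔHMG-SOX9 and between 0.710% and 14.4% with ΔTA-SOX9. With ΔTA-SOX9 the highest of them, Cdh5, was above Trp63, so coverage did not set every keratinocyte gene apart either. H3K4me1 can mark genes that are not expressed, so these values describe the mark and not expression.

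Coverage was compared over gene regions, each spanning a gene and 10 kb to either side. Of 21911 protein-coding genes, 18506 had a domain in either list, and the median difference in covered share was 0.395 percentage points towards ΔTA-SOX9 (quartiles -1.22 and 2.18). The covered share was at least 10 points higher with ΔTA-SOX9 in 167 regions (0.902%) and with ΔHMG-SOX9 in 91 (0.492%). The largest differences towards ΔTA-SOX9 were at Rgs4, a regulator of G protein signalling (3.94% with ΔHMG-SOX9 and 24.8% with ΔTA-SOX9), C77080 (19.5% and 36.8%), Gnat1 (20.2% and 37.5%) and Sertad4 (10.2% and 25.4%). Those towards ΔHMG-SOX9 were at the tight junction gene Cldn4 (44.5% and 27.8%), Asna1 (34.1% and 17.6%), Cnfn, a component of the cornified envelope (38.7% and 24.5%), Mtfr1l (23.9% and 10.3%) and the Notch target Hes1 (36.1% and 23.2%). These genes were picked for the size of their difference.

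Start sites were mostly marked in both lists. Of 13103 protein-coding genes with a domain within 1000 bp of a start site in either list, 10481 (79.99%) had one in both, 1407 (10.7%) with ΔTA-SOX9 only and 1215 (9.27%) with ΔHMG-SOX9 only. In neither WT list were 384 of the 1407 and 214 of the 1215. Among the 115 listed genes a start was marked with ΔTA-SOX9 only at 9 genes, Cebpa, Itgb1, Krt10, Runx1, Krt6a, Tslp, Cdh2, Pecam1 and Pmel. With ΔHMG-SOX9 only it was marked at 5, Cebpb, Lamb3, Dsg1a, Fosb and Shh. Most listed genes with a marked start had it in both lists, as over all genes, so these names only describe the lists.

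In 10 lists of 115 skin genes, 3 regions passed 10 points towards ΔTA-SOX9 and 1 towards ΔHMG-SOX9, to be set beside 0.902% and 0.492% of all regions. The AP1 gene Jun was covered by 7.80% with ΔHMG-SOX9, 19.6% with ΔTA-SOX9, 13.1% without DOX and 20.02% with WT SOX9. Its ΔTA-SOX9-only domain, shown above, lay 10948 bp from its start and was also called without DOX. S100a8 and S100a9 encode the calprotectin subunits that wounded keratinocytes make. S100a8 had 7.71% with ΔHMG-SOX9 and 18.3% with ΔTA-SOX9, and S100a9 had 4.01% and 15.97%. Their 4 ΔTA-SOX9-only domains were in neither WT list, and the strongest, 6153 bp from the start of S100a9, had a width of 1016 bp and a fold of 4.16. The region of the cytokine gene Il1b went the other way, with 19.5% and 9.25%, and its ΔHMG-SOX9-only domain was called with WT SOX9 and not without DOX. The exclusive domains at Jun and Il1b were 370 bp and 237 bp wide. Most of the difference in coverage at these 2 genes therefore lay in domains that overlapped between the lists.

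Of the stress and wound genes 10 of 13 had more coverage with ΔTA-SOX9, with a median difference of 2.93 points. The chemokine gene Cxcl1 had 11.6% with ΔHMG-SOX9 and 17.4% with ΔTA-SOX9. The median level over the list ran the other way, 19.5% with ΔHMG-SOX9 and 18.3% with ΔTA-SOX9. Of the mesenchymal programme genes 6 of 8 were higher with ΔTA-SOX9, among them Snai2 (4.19% and 13.4%) and Snai1 (22.0% and 30.0%), both repressors of epithelial genes. Of the hair follicle stem cell genes 9 of 13 were higher with ΔTA-SOX9, with Sox9 at 9.40% and 13.3%, while Tbx1 was lower (24.8% and 16.8%). A part of the introduced Sox9 sequence in the Sox9 values was not tested. The vascular gene Cdh5, in the list of other cell types, had 6.30% and 14.4%, and 7 of the 10 marked genes of that list were higher with ΔTA-SOX9. Across all regions 57.6% were.

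The differentiation genes leaned to ΔHMG-SOX9. Of 12, 9 had more coverage with ΔHMG-SOX9, with a median difference of -2.22 points, as at Sbsn (34.7% and 27.4%) and Sprr1a (16.2% and 10.8%), both products of differentiating keratinocytes. Flg, the filaggrin gene, differed by 5.33 points towards ΔTA-SOX9. Epidermal identity factors were split, with 7 of 13 higher with ΔHMG-SOX9, and Tfap2c (17.96% and 8.495%) and Grhl1 (25.2% and 18.3%) differed most. Basal keratinocyte and adhesion genes (7 of 13 higher with ΔTA-SOX9), AP1 factors (5 of 10), Hedgehog pathway genes (5 of 12) and chromatin cofactors (5 of 9) had medians between -0.28 and 1.13 points. Smarcd2, a subunit of the SWI/SNF remodeller, had the largest difference among the cofactors, 29.5% and 20.5%. The region size matters for single genes. With 50 kb on either side the differences were 7.27 points at Jun, 5.95 at S100a8, 6.65 at S100a9 and -1.47 at Il1b, so none passed 10 points, and those at Cxcl1 (-1.34) and Smarcd2 (1.10) changed sign. Of the 115 regions 82 kept both their direction and their side of 10 points, and the list medians were 0.64 points for the stress and wound genes, 2.32 for the mesenchymal programme genes and -0.50 for the differentiation genes. The order of the lists therefore depended on the flank.

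**Figure D5:**
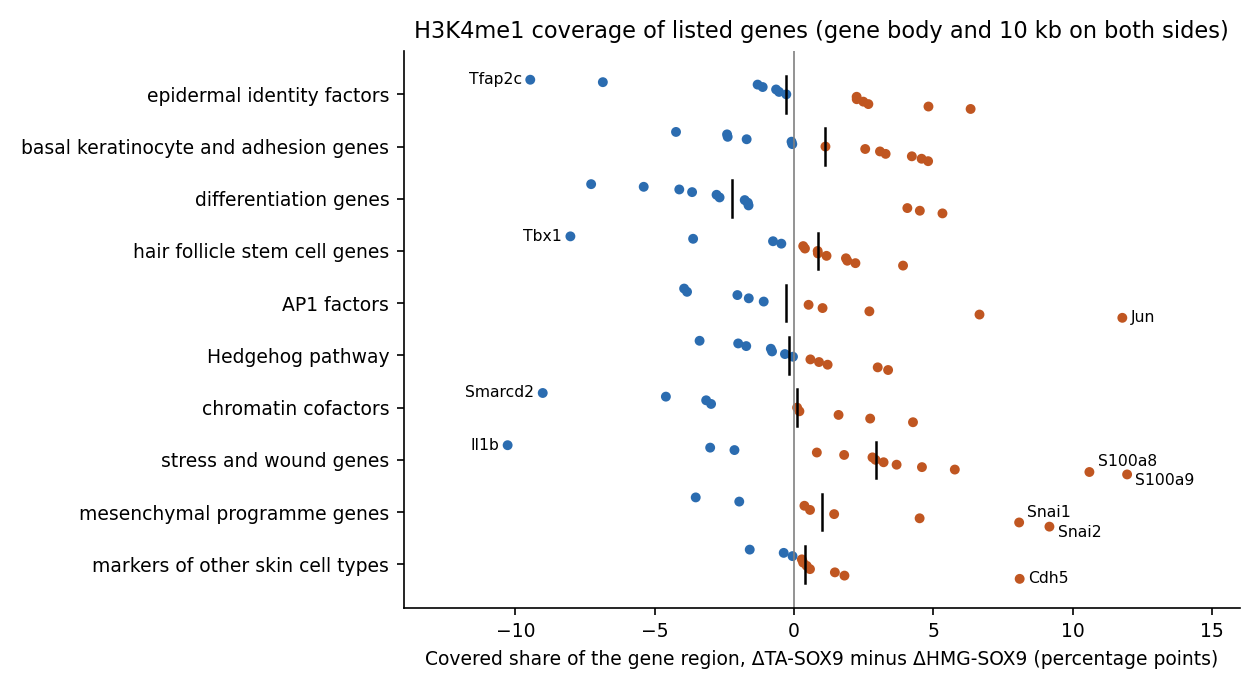
Covered share of each listed gene region (the gene and 10 kb to either side) in the ΔTA-SOX9 list minus that in the ΔHMG-SOX9 list, in percentage points, 1 point per gene with a domain and a bar at the median of each list. Jun, S100a8 and S100a9 lie above 10 points and Il1b below -10, and the median of the differentiation genes is at -2.22 and that of the stress and wound genes at 2.93.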

How the data were processed

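H3K4me1 MINT-ChIP of cultured EpdSCs was analysed from the 4 culture lists. For comparison, lists of Krt14-rtTA;TRE-Sox9 skin at D0 and W2 (2 weeks of DOX, which induces MYC-tagged SOX9) were used. As the study and the processing notes of the submitters describe it, the authors split reads by barcode, aligned them to mm10 with Bowtie2 (2.2.9), removed duplicates with Picard, merged libraries with SAMtools (1.9) and called intervals on merged reads. The study names epic2 for broad domains, while the culture lists have the layout of MACS2 (2.1.1) broad peaks, so how they were called is not settled, and the settings are not given in the sources used here. The deposited culture lists hold a whole-number score, a fold (linear ratio to local background) and −log10 p and q of each domain, and the largest q was 0.0982. For skin, the deposited H3K4me1 lists carry p-values and the H3K27ac lists a fold ratio. Conditions were read from list names.

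Domains on 21 chromosomes were used, with overlap of at least 1 bp. None ran past a chromosome end of GRCm38. Read totals are not in the lists. Background pileup was solved from the commonest fold of each list, (pileup + 1) / (background + 1), and the Poisson p beside it, a small pileup at which weak domains can be missed in either list. Places used 77161 start sites of GENCODE M21, with distal over 2500 bp. Letters were searched in the central 300 bp on both strands. Python 3.11.15, pandas 2.3.3, SciPy 1.17.1 and pysam 0.24.0 were used, and the overlap, distance and ratio functions were tested on simulated lists.

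Names were drawn from the 10 strongest and 5 widest exclusive domains per list (of the strongest, only some are described), the 5 pairs with the largest fold ratio each way, the 5 genes with most exclusive domains by nearest protein-coding start site, Sox9, and up to 4 genes per gene list by difference in coverage. Sequences are those of the 2 strongest exclusive domains per list outside chromosome 18, of which 1 is not reported here. Genes with the largest difference over all regions, those with a start marked in 1 list only and the sequences at Il1b, Jun and S100a9 were named after their values were seen. The comparison, the members and the gene lists were chosen with earlier results of these data known. Of 28 files, 18 were not used here. Alternatives were a 50% overlap, q below 0.01, scores above the median, equal list lengths, joining within 1000 bp, no X and Y, other distal limits, protein-coding starts and 50 kb flanks. Their use on the AP1 letters and gene density was chosen after seeing the data.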

Additional observations from a re-analysis of the deposited data

How the results depend on the processing

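Of 84 alternative values of 13 results, 42 stayed within the limit set for their kind, 41 moved further and 1 reversed (counts within 1.5 times, shares and ratios within their interval, the Jaccard index equal to 3 significant digits). ΔTA-SOX9-only domains were the more numerous in 7 of 7 settings, the main one included. Shared domains were nearly equal in number, 96919 with ΔHMG-SOX9 and 96525 with ΔTA-SOX9, while the full lists held 116326 and 123338 domains. The larger exclusive set thus goes with the longer list, and the 7 settings are not separate support for it. Keeping only the higher-scoring part of a list (above its median) and comparing it with all of the other left 2975 ΔHMG-SOX9-only and 4692 ΔTA-SOX9-only domains, a ratio of 1.58, of which 67.4% and 35.3% were called without DOX, 83.3% and 86.8% were distal, and 12.7% and 25.2% held the AP1 letters. Between the 2 higher-scoring parts the Jaccard index was 0.494 and the median log2 fold ratio 0.032. Against the full other list the ratio of exclusive domains was 1.89 in windows of under 20 genes and 1.27 at 80 or more. With q below 0.01 in both lists the ratio was 1.24, 58.9% and 36.4% were called without DOX, 80.3% and 83.6% were distal, the Jaccard index was 0.558, and the ratio was 1.499 in gene-poor and 1.04 in gene-rich windows. With lists of equal length the ratio was 1.02, 49.7% and 28.1% were called without DOX, 81.3% of ΔHMG-SOX9-only domains were distal, the Jaccard index was 0.559, the median log2 fold ratio 0.018, and the ratio 1.24 in gene-poor windows and, reversed, 0.831 in gene-rich ones. With a 50% overlap the ratio was 1.34, 46.04% of ΔHMG-SOX9-only domains were called without DOX, 80.9% and 83.6% were distal, and 20.7% of ΔTA-SOX9-only domains held the AP1 letters. Joining neighbouring domains gave a Jaccard index of 0.557, and leaving out chromosomes X and Y 0.558. Distal shares were 89.8% and 91.2% over 1000 bp, 54.5% and 60.9% over 10000 bp, and 88.9% and 90.8% from protein-coding starts only. The causes of these shifts were not tested, beyond what each setting removes. No paired analysis was possible because both libraries were merged into 1 list per condition, and for the same reason no replicate could be left out. Weak domains are limited by the small background pileup of 1.52 and 1.66.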
